A study of Rattus norvegicus with 46 samples.

Results

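The Hsp90 and Hsp70 chaperone machinery was followed through 9 genes, Hsp90aa1, Hsp90ab1, Hsph1, Hspa4, Hspa8, Stip1, Chordc1, Dnaja1 and Dnajb1, out of 14317 genes named by a single symbol on the arrays. Each gene was read by its probe set with the highest mean over 46 arrays. The genes had been chosen because in these same arrays their levels were lower in loaded legs and higher in later windows. Their values in those comparisons are therefore descriptions. Counts of members called there by the fit across all genes are printed beside the share of all genes called, and nothing is read from them. The arrays measured RNA of the proximal gastrocnemius, the calf muscle, of 23 female Sprague-Dawley rats kept in an experimental intensive care model, 1 array for each leg. All rats were anaesthetised with isoflurane, ventilated mechanically and paralysed with α-cobrotoxin, which blocks the acetylcholine receptor at the neuromuscular junction. The ankle of the left leg was flexed and extended passively, with 13.3 cycles each minute, during 12 h per day (6 h in total for the briefest studies), and the other leg was not loaded. The groups were loaded and unloaded legs of 13 rats studied for 6 h to 4 d, of 4 rats studied for 5 to 8 d and of 6 rats studied for 9 to 14 d. No untreated rats were measured, each window pools rats of different durations, and the legs of a rat share its circulation.

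Hsp90 is a dimeric ATP-driven chaperone that finishes the folding of kinases, steroid hormone receptors and, in muscle, myosin. Client proteins usually reach it from Hsp70, to which J-domain proteins deliver unfolded chains and from which nucleotide exchange factors release them. Heat shock factor 1 drives many of these genes in stressed cells through the heat shock element, a repeat of alternating GAA and TTC units. In skeletal muscle the machinery handles proteins damaged by exercise, heat or disuse.

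Promoters are shown for the 6 members that hold this element. The genes were not chosen by sequence, but many genes of this machinery are driven through the element. The shares below are therefore a description. RefSeq promoters of the GRCr8 assembly were listed for 8 of the 9 members, each from 250 bases before to 50 after a start site. That site is the outer start of the gene for 5 of them and lies inside it by 100 bases for Chordc1, 174 for Hsp90ab1 and 2159 for Hspa4. The element of 2 units was searched as GAANNTTC or TTCNNGAA, each of which reads the same on both strands. The element of 3 units adds a further alternating unit after NN to either of these, in both orders and so on both strands, and each match of 3 units holds 2 overlapping matches of 2 units. The element of 3 units stood in the promoters of 4 members, Hsph1, Hspa8, Chordc1 and Dnaja1, and in 0.798% of all 33469 promoters of 300 bases. The element of 2 units stood in 6 members, these 4 with Stip1 and Dnajb1, and in 15.9% of all promoters. The CCAAT box, searched as CCAAT or ATTGG, stood in 6 members and in 37.5% of all promoters. A match is a description of the letters and not evidence of binding. The promoters of Hsph1 at chr12:10427118-10427417 (plus strand), Hspa8 at chr8:50080264-50080563 (plus strand), Chordc1 at chr8:23650571-23650870 (plus strand), Dnaja1 at chr5:60638154-60638453 (plus strand), Stip1 at chr1:213657605-213657904 (minus strand) and Dnajb1 at chr19:41431092-41431391 (minus strand) are printed 5′ to 3′, with every element of 2 or 3 units in capitals:
Hsph1: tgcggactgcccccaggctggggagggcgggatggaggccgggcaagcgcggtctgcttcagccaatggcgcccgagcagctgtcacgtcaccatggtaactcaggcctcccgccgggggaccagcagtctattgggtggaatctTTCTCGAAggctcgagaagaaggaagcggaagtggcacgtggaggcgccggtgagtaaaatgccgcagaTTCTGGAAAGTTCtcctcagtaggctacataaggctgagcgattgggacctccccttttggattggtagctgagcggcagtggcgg
Hspa8: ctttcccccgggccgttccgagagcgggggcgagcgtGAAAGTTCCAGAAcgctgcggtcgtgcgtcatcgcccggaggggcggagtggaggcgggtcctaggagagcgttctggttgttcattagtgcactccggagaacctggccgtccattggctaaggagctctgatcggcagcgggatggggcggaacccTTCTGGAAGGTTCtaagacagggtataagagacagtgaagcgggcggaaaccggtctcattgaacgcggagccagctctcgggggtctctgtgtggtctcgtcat
Chordc1: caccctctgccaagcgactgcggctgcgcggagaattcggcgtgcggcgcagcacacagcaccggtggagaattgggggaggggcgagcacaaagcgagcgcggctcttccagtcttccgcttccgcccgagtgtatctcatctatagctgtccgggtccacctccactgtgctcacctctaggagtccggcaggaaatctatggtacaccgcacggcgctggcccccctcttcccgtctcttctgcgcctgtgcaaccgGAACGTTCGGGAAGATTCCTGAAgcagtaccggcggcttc
Dnaja1: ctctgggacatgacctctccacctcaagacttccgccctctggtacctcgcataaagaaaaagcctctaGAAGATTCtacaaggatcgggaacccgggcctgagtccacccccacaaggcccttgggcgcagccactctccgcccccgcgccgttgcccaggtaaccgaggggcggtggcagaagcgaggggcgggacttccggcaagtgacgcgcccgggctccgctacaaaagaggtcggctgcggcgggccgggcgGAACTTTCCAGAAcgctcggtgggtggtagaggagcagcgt
Stip1: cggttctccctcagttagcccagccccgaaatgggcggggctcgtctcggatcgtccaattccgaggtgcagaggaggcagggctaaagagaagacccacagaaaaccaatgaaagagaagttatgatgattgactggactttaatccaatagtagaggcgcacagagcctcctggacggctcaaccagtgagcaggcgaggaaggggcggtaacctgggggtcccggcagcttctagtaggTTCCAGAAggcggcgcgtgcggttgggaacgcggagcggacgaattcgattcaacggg
Dnajb1: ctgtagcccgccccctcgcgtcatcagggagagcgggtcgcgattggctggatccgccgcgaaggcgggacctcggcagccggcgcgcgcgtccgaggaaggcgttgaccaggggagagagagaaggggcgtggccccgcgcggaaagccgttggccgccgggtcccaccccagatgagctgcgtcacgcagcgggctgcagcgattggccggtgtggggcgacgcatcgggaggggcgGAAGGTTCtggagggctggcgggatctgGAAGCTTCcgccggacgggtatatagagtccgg
Counted from the start site of each promoter, Chordc1 holds 3 overlapping matches of 3 units from base 10 to base 32, and Dnaja1 holds 1 from base 9 to base 21. Hsph1 has its match at -36 to -24, and Hspa8 has matches at -213 to -201 and at -55 to -43. Stip1 has a single match of 2 units at -8 to -1, and Dnajb1 has matches of 2 units at -11 to -4 and at 17 to 24.

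All 9 members lay above the median of their own array on every array, with a lowest value of 6.64 on the log2 scale against array medians of 6.07 to 6.20. The mean of 8 fast skeletal muscle markers was high on every array, between 12.83 and 13.78. The mean of 5 slow-fibre markers varied widely, from 6.78 to 12.50 over the arrays. Its median at 6 h to 4 d was 9.96 in loaded and 12.05 in unloaded legs, and at 9 to 14 d it was 10.28 in loaded and 9.44 in unloaded legs. Legs were joined into rats by consecutive label numbers, since no label states the pairs, and rats carry the number of the unloaded leg. In whole muscle, fewer cells of a type and less RNA per cell cannot be told apart.

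Hsp90aa1, the stress-inducible cytosolic Hsp90 (chr6:135523604-135529687, GRCr8), was highest in unloaded legs of both later windows. At 6 h to 4 d its log2 level had a lowest value of 8.73, a median of 9.84 and a highest value of 10.73 in loaded legs, against 9.04, 9.67 and 10.64 in unloaded legs. Rats of 5 to 8 d had it at 10.52, 9.93, 11.33 and 10.83 in the loaded legs of rats 41, 43, 53 and 55, against 10.75, 11.43, 11.45 and 11.02 in their unloaded legs. The last window, 9 to 14 d, had a lowest value of 9.93, a median of 10.36 and a highest value of 11.06 in loaded legs, against 10.43, 11.15 and 11.75 in unloaded legs. The legs overlapped in every window, yet the loaded leg was the lower one in all 10 rats of both later windows and in 9 of 13 rats of the first. The differences of the 6 rats at 9 to 14 d were -0.49, -0.57, -0.88, -0.71, -0.86 and -0.53, a narrow range that lay wholly below 0. They averaged -0.67 ± 0.17 (SD, n = 6), while the 13 early rats averaged -0.23 ± 0.42 (SD, n = 13).

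Hsp90ab1, the constitutive cytosolic Hsp90 (chr9:22930249-22935929), moved far less between legs and more evenly between windows. Its level averaged 12.67 ± 0.15 in loaded and 12.71 ± 0.16 in unloaded legs at 6 h to 4 d (SD, n = 13 each), 12.95 ± 0.10 and 13.10 ± 0.17 at 5 to 8 d (n = 4 each), and 13.06 ± 0.17 and 13.18 ± 0.11 at 9 to 14 d (n = 6 each). The lowest unloaded leg at 9 to 14 d, 13.08, was above the highest at 6 h to 4 d, 13.01. Its leg difference at 9 to 14 d was -0.12 ± 0.12 (SD, n = 6), lower in 5 of 6 rats.

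Hsph1, an Hsp110 protein that acts as a nucleotide exchange factor of Hsp70 (chr12:10427368-10446602), was also highest in unloaded legs of both later windows. Its level had a lowest value of 8.05, a median of 8.38 and a highest value of 8.80 in loaded legs at 6 h to 4 d, against 8.12, 8.45 and 8.81 in unloaded legs. In the middle window the loaded legs of rats 41, 43, 53 and 55 had 8.72, 8.81, 9.28 and 8.75, against 9.07, 10.33, 9.52 and 8.95 in their unloaded legs. In the last window the lowest, median and highest values were 8.45, 9.12 and 9.60 in loaded legs, against 9.10, 9.69 and 10.27 in unloaded legs. Every unloaded leg of both later windows was above every unloaded leg of the first window, while in loaded legs the windows overlapped. The leg differences of the 6 late rats ran from -1.24 in rat 49 to -0.19 in rat 59, with a mean of -0.68 ± 0.42 (SD, n = 6).

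Hspa4, another Hsp110 family exchange factor (chr10:37908866-37951994), was higher in the later windows in both legs and differed little between them. Its unloaded legs lay between 9.91 and 10.41 at 6 h to 4 d, between 10.48 and 10.70 at 5 to 8 d and between 10.54 and 10.82 at 9 to 14 d, so that neither later window overlapped the first. Its loaded leg was lower in 4 of 6 rats at 9 to 14 d, with a mean difference of -0.12 ± 0.17 (SD, n = 6), and in 5 of 13 rats at 6 h to 4 d.

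Hspa8, the constitutive Hsp70 of the cytosol (chr8:50080514-50084376), was the member with the smallest change over time in unloaded legs. Its level averaged 13.50 ± 0.31 in loaded and 13.68 ± 0.25 in unloaded legs at 9 to 14 d (SD, n = 6 each), and 13.45 ± 0.05 and 13.46 ± 0.05 at 6 h to 4 d (n = 13 each). The legs of the first window were tightly grouped, and those of later windows spread both above and below them. The loaded leg was lower in 6 of 6 rats at 9 to 14 d. The annotation gives Hspa8 8 probe sets with very similar values, so its transcripts may not be told apart from related sequences and its values are uncertain. Over the 8 probe sets the leg difference at 9 to 14 d ran from -0.25 to -0.17 and the change over time in unloaded legs from 0.21 to 0.30.

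Stip1, also called Hop, joins Hsp70 to Hsp90 and hands over the client (chr1:213638641-213657654). Its loaded legs stayed near the level of the first window and its unloaded legs did not. At 6 h to 4 d the lowest, median and highest levels were 10.28, 10.52 and 10.80 in loaded legs, against 10.42, 10.59 and 10.79 in unloaded legs. In the middle window rats 41, 43, 53 and 55 had 10.96, 10.60, 10.59 and 10.39 in loaded legs, against 11.28, 11.65, 10.91 and 10.61 in unloaded legs. Those of 9 to 14 d were 10.42, 10.65 and 10.74 in loaded legs, against 10.76, 11.01 and 11.65 in unloaded legs. Stip1 was the single member whose legs did not overlap at 9 to 14 d, where those of 0.0969% of all 9289 genes tested did not overlap. Its differences of the 6 rats were -0.34, -0.11, -0.64, -0.96, -0.73 and -0.32.

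Chordc1, a zinc-binding co-chaperone of Hsp90 that is induced by heat shock (chr8:23650721-23674786), had its highest mean in unloaded legs of the last window. Its level at 6 h to 4 d had a lowest value of 9.21, a median of 9.65 and a highest value of 9.87 in loaded legs, against 9.40, 9.62 and 10.02 in unloaded legs. Rats 41, 43, 53 and 55 of the middle window had 9.43, 9.60, 10.03 and 9.74 in loaded legs, against 9.65, 10.16, 10.09 and 9.88 in unloaded legs. In the last window rats 45, 47, 49, 51, 57 and 59 had 9.14, 9.47, 9.12, 9.38, 10.08 and 9.98 in loaded legs, against 9.69, 9.71, 9.86, 10.15, 10.56 and 10.16 in unloaded legs. Rats 57 and 59 had the highest values of this window in either leg, and the difference within the rat was negative in 6 of 6. It averaged -0.49 ± 0.24 (SD, n = 6). The loaded legs of the last window had the lowest mean of all groups for this gene.

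The J-domain proteins start the cycle by bringing clients to Hsp70. Dnaja1, a farnesylated member of type A (chr5:60638404-60649315), averaged 10.04 ± 0.32 in loaded and 10.43 ± 0.33 in unloaded legs at 9 to 14 d (SD, n = 6 each), against 9.41 ± 0.40 and 9.44 ± 0.34 at 6 h to 4 d (n = 13 each). Dnajb1, the stress-inducible Hsp40 (chr19:41427453-41431141), averaged 7.38 ± 0.14 and 7.78 ± 0.37 at 9 to 14 d, against 7.14 ± 0.31 and 7.17 ± 0.19 at 6 h to 4 d. Both were lower in the loaded leg of all 6 late rats, by 0.09 to 0.62 on the log2 scale for Dnaja1 and by 0.10 to 0.75 for Dnajb1. The rats of 5 to 8 d were not uniform, with 2 of 4 rats lower for Dnaja1 and 1 of 4 for Dnajb1.

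**Figure D1:**
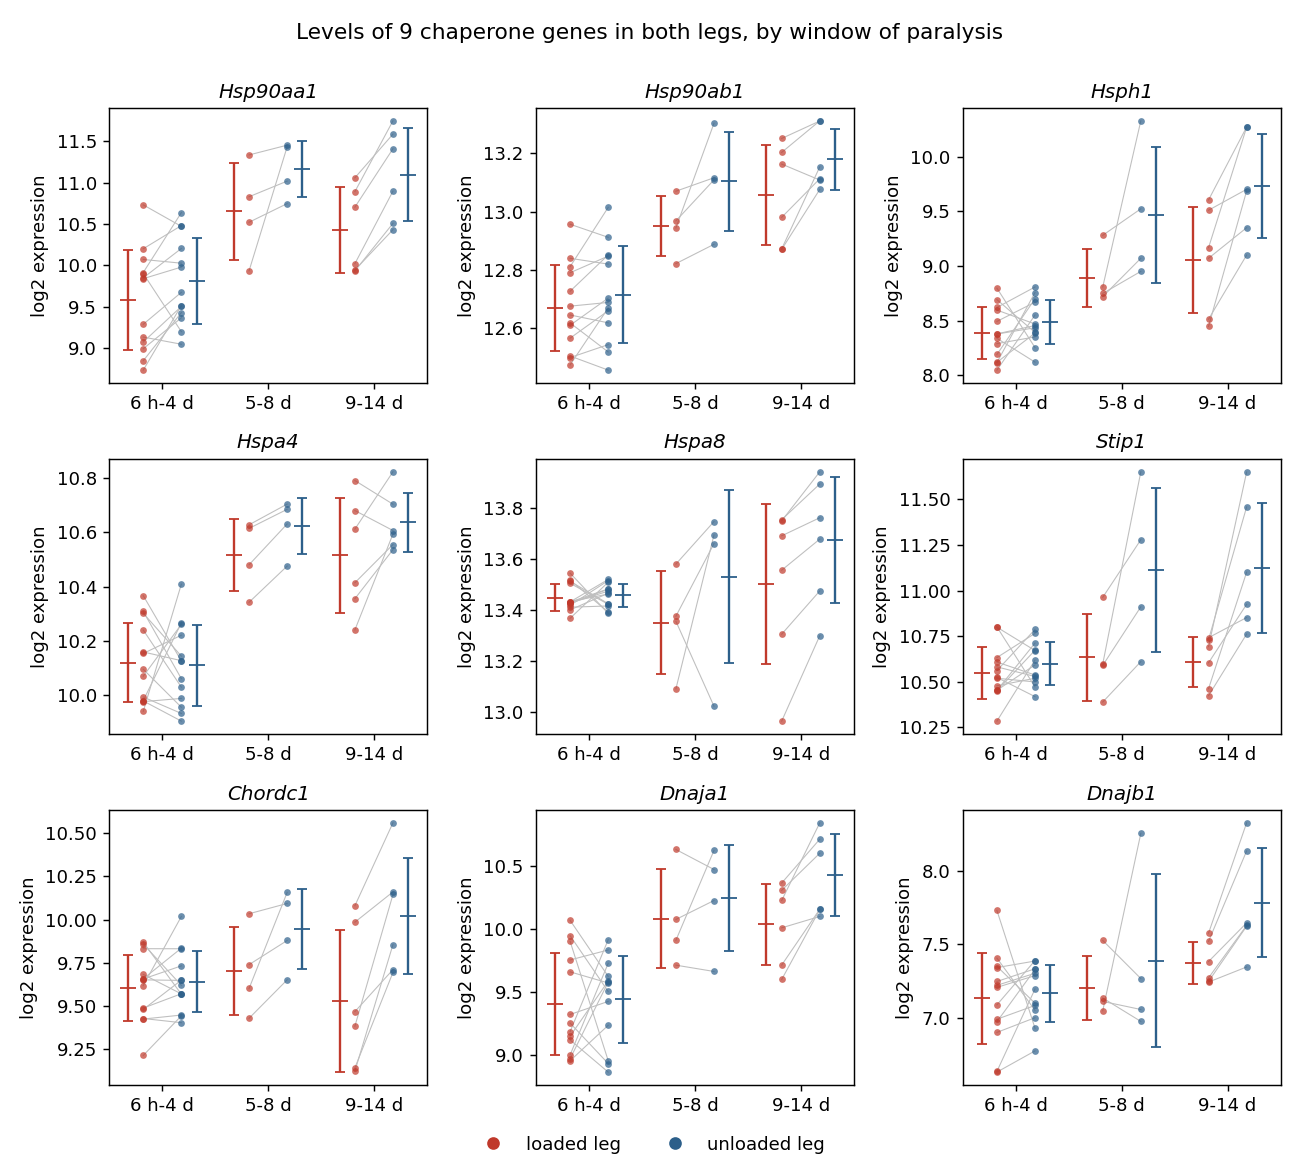
Log2 expression of the 9 members (vertical axes, 1 panel per gene, each with its own range) in loaded legs (red, left) and unloaded legs (blue, right) by window of paralysis; points are arrays, grey lines join the legs of 1 rat, and bars give the mean ± SD. Unloaded legs at 9 to 14 d have the highest mean in 8 of the 9 panels, and 51 of the 54 lines of that window slope upward from the loaded to the unloaded leg.

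Passive loading went with lower chaperone levels most regularly in the last window. All 9 members had a negative mean leg difference at 9 to 14 d, with a median of -0.41 against -0.01 over all 9289 genes tested. By limma's moderated test with Benjamini-Hochberg adjustment over those genes at 0.05, 2 members were called lower, Stip1 (-0.52, SE 0.10) and Chordc1 (-0.49, SE 0.09), where 0.108% of all genes were called lower and 0.269% in either direction. Hsp90aa1 and Hsph1 had larger mean differences than these but wider errors, and were not called. The call of Stip1 ended without rat 45, 49, 51 or 57, and that of Chordc1 without rat 49 or 51. At 5 to 8 d the median was -0.18 and no member was called (0% of all genes, with 644 genes and 5 members at an unadjusted p under 0.05). At 6 h to 4 d the median was -0.04 and no member was called (0% of all genes, with 1075 genes and 1 member at an unadjusted p under 0.05).

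With 1 leg effect for all 23 rats, all 9 members had negative differences with a median of -0.16, and 1 member, Hsp90aa1 (-0.39, SE 0.09), was called, where 1.47% of genes were called lower and 2.33% in either direction. Fitting a leg effect per window and averaging these by number of rats, an analysis added after the data had been seen, gave the same differences with smaller errors and called 4 members, Hsp90aa1, Hsph1, Stip1 and Chordc1, where 2.90% of all genes were called. Each sample description carries digits after the leg number that have the form of a date, called the date code here, and the labels do not say what they mark. In the 10 rats of the single date code that holds all 3 windows (4 early, 2 middle and 4 late rats) no member was called (0.0108% of all genes), and the differences were -0.47 for Hsp90aa1, -0.55 for Hsph1, -0.37 for Stip1 and -0.32 for Chordc1. At 9 to 14 d in that code Stip1 had -0.51 and Chordc1 -0.57, also without a call (0% of all genes).

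Counted by rat, the loaded leg was lower for 7 to 9 of the 9 members in every rat of 9 to 14 d, or in 51 of 54 combinations of gene and rat. At 5 to 8 d it was lower for 6 to 9 members (30 of 36 combinations), and at 6 h to 4 d for 1 to 9 (71 of 117). In 5 of the 13 early rats, numbers 21, 27, 29, 33 and 37, at most 3 members were lower. The members were chosen for lower levels in loaded legs and vary together within a rat, so these counts are a description. At 9 to 14 d 53.2% of all genes had a negative mean leg difference. The pairing of legs is uncertain in rats 17, 19, 21, 23, 27 and 51, in which neither leg correlated best with its own partner among all legs of the other side. Without these 6 rats 3 members were called over all windows (3.24% of all genes) and none at 9 to 14 d (0.0646% of all genes). The 4 rats at 5 to 8 d were dominated by rat 43, with differences of -1.50 for Hsp90aa1, -1.52 for Hsph1, -1.05 for Stip1 and -1.20 for Dnajb1. Without it the mean differences at 5 to 8 d were -0.18, -0.27, -0.29 and 0.16 for these genes.

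**Figure D2:**
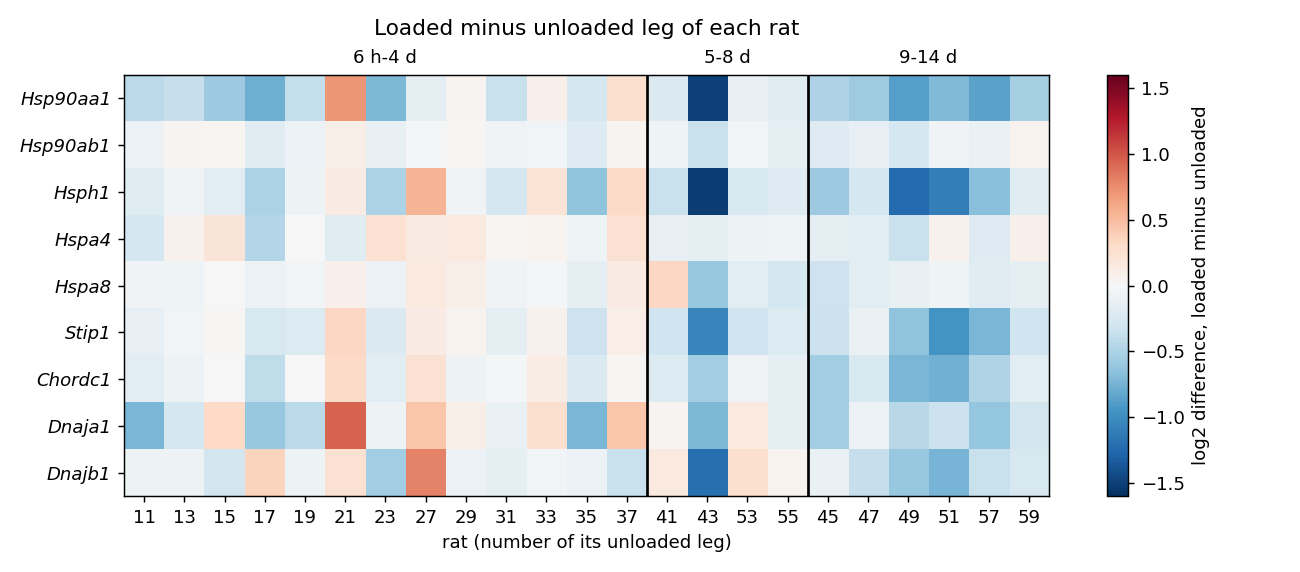
Log2 difference, loaded minus unloaded leg, of each member (rows) in each of 23 rats (columns, grouped by window); blue is lower and red higher in the loaded leg. The 6 rats of 9 to 14 d are blue in 51 of 54 cells, rat 43 holds the darkest cells, and the rats of 6 h to 4 d are mixed.

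Markers of other cells were read beside these differences. In the last window the mean of 5 adipocyte markers ran from 6.61 to 7.29 (median 6.70) in loaded legs, against 6.52 to 7.69 (median 7.46) in unloaded legs. That of 7 fibroblast markers ran from 7.99 to 9.98 in loaded legs, against 7.92 to 9.32 in unloaded legs. The mean of 10 macrophage markers had medians of 8.76 and 8.73, and that of 5 slow-fibre markers ran from 7.24 to 12.06, against 7.28 to 11.46. Of these lists 1 fibroblast marker was called, higher in loaded legs, where 0.269% of all genes were called in either direction. The part of these cells in the chaperone differences was not tested.

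Over time all 9 members were higher in the later windows of unloaded legs. For 9 to 14 d minus 6 h to 4 d the median change was 0.53, against 0.07 over all genes. By limma's test 8 members were called higher, where 28.7% of all genes were called higher and 45.6% in either direction. The changes were 1.29 for Hsp90aa1 (SE 0.24), 1.24 for Hsph1 (SE 0.18), 0.98 for Dnaja1 (SE 0.17), 0.61 for Dnajb1, 0.53 each for Hspa4 and Stip1, 0.46 for Hsp90ab1 and 0.38 for Chordc1. Hspa8 was the member not called, at 0.22. At 5 to 8 d 6 members were called higher in unloaded legs, where 23.6% of all genes were called higher and 35.9% in either direction, with a median of 0.51. The call of Stip1 in that window ended without rat 43. Against 6 h to 4 d, unloaded legs did not overlap for 4 members at 9 to 14 d and 3 members at 5 to 8 d, and for 9.87% and 8.44% of all genes. No member was called between 9 to 14 d and 5 to 8 d, where 0.226% of genes were called in unloaded legs (1445 genes and 0 members at an unadjusted p under 0.05).

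In loaded legs the later windows were higher for some members. By 9 to 14 d 5 members were called, all higher, where 44.2% of all genes were called in either direction and 2696 of 9289 were higher, namely Hsp90aa1 (0.84), Hsph1 (0.66), Dnaja1 (0.63), Hspa4 (0.39) and Hsp90ab1 (0.39). The changes of the others were 0.24 for Dnajb1, 0.06 each for Hspa8 and Stip1 and -0.07 for Chordc1. At 5 to 8 d 5 members were called higher in loaded legs, where 26.9% of all genes were called higher and 39.0% in either direction. With 1 rat left out in turn, 2738 to 3902 of 9289 genes were called there. Without rat 53, 1 member was left. The calls of Hsp90aa1, Hsph1 and Dnaja1 ended without that rat, and that of Hsp90ab1 without rat 53 or 55. Again no member was called between the later windows in loaded legs (0.226% of genes, with 1341 genes and 0 members at an unadjusted p under 0.05).

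The windows were spread unevenly over the date codes in the labels, and 9 of the 13 early rats have codes that no later rat has. The later rats 53, 55, 57 and 59 have a code that no early rat has. A fit with the code as a block thus links the later windows to the first only through the code that holds all windows. With the date code as a block 7 members were called higher in unloaded legs at 9 to 14 d, all but Hsp90aa1 (0.86) and Hspa8 (0.10), where 23.4% of all genes were called. In loaded legs with that block 1 was called, Hsph1 (0.56), with 1862 of 9289 genes. By 5 to 8 d 3 were called in unloaded legs (8.15% of all genes) and 0 in loaded legs (9.15% of all genes). Within the single code that holds all windows, with 4 rats early and 4 late, the late change in unloaded legs was 1.19 for Hsph1, 0.82 for Dnaja1, 0.76 for Hsp90aa1 and 0.47 for Hspa4, and 2 members, Hsph1 and Hspa4, were called (9.73% of all genes). For loaded legs of that code the change of Hsp90aa1 was 0.17 and that of Hsph1 0.48, and none was called (4.88% of all genes). In unloaded legs by 9 to 14 d 1569 of 9289 genes were called lower and 2663 higher. Among cell type markers there, 6 of 8 fast muscle, 2 of 5 slow-fibre and 2 of 7 fibroblast markers fell. So did 2 of 4 endothelial and 1 of 5 adipocyte markers, while 4 of 10 macrophage and 1 of 2 neutrophil markers rose. In unloaded legs at 5 to 8 d 1147 of 9289 genes were called lower. There 6 of 7 fibroblast markers fell (median -1.41), as did 4 of 8 fast muscle, 1 of 5 slow-fibre and 2 of 10 macrophage markers. Macrophage markers thus had medians of opposite sign in the later windows, 0.53 at 9 to 14 d and -0.56 at 5 to 8 d. The mean of the macrophage markers ran from 7.82 to 9.97 in unloaded legs at 9 to 14 d, against 7.47 to 8.65 at 6 h to 4 d, and that of the fast markers from 13.05 to 13.46, against 13.35 to 13.78. The part of the date codes and of these cells in the chaperone changes was not tested.

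Whether the effect of loading itself changed with duration is a separate contrast, the leg difference at 9 to 14 d minus that at 6 h to 4 d. It equals the change over time in loaded legs minus that in unloaded legs, from the same arrays, so it is not independent of the values that chose the members. All 9 members were negative, with a median of -0.37, where 50.7% of all genes were negative. None passed limma's test (0% of all genes, with 717 genes and 4 members at an unadjusted p under 0.05). Chordc1 had the smallest adjusted p, 0.271, at -0.45 (SE 0.10, 95% interval -0.67 to -0.24). The intervals not adjusted for multiple testing ran from -0.73 to -0.20 for Stip1, from -0.98 to -0.18 for Hsph1 and from -0.85 to -0.04 for Hsp90aa1, all below 0. Those of Hsp90ab1 (-0.22 to 0.06), Hspa4 (-0.33 to 0.07), Hspa8 (-0.35 to 0.03), Dnaja1 (-0.77 to 0.06) and Dnajb1 (-0.75 to 0.00) reached 0. For the leg difference at 5 to 8 d minus that at 6 h to 4 d the median was -0.17 and none passed (0% of all genes, with 557 genes and 2 members at an unadjusted p under 0.05), with a smallest adjusted p of 0.693 for Stip1. Without rat 43 this contrast was 0.05 for Hsp90aa1, against -0.28 with it, and -0.24 for Stip1, against -0.43 with it.

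**Figure D3:**
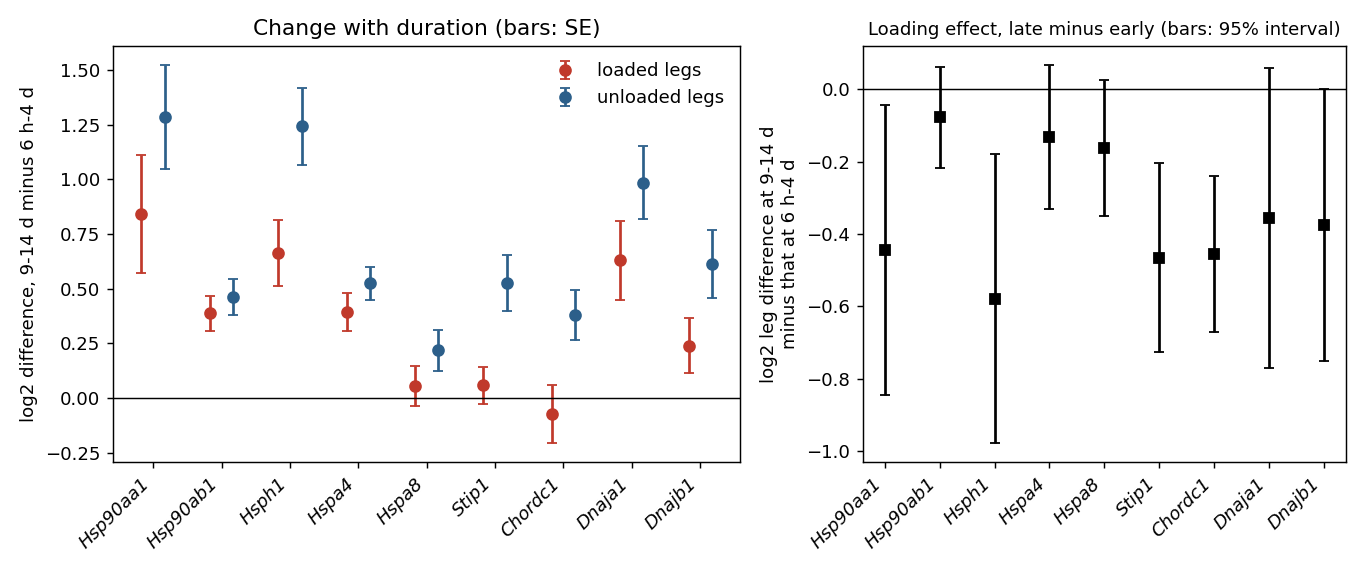
Left, log2 change of each member from the first to the last window (9 to 14 d minus 6 h to 4 d) in loaded legs (red, left of each pair) and unloaded legs (blue), with SE. Right, the leg difference at 9 to 14 d minus that at 6 h to 4 d with its 95% interval, where the intervals of Hsp90aa1, Hsph1, Stip1 and Chordc1 lie below 0 and no adjusted p passed 0.05.

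Ordered by mean over the 6 groups, unloaded legs at 9 to 14 d were highest for 8 members, and unloaded legs at 5 to 8 d for Hsp90aa1. Loaded legs at 6 h to 4 d were lowest for 6 members. Most neighbours in these orders lay closer than the larger of their SDs. For Hsp90aa1, Hspa4 and Dnaja1 the gap beyond it fell between loaded legs at 9 to 14 d (10.42, 10.52 and 10.04) and the higher group of 6 h to 4 d (9.81, 10.12 and 9.44). The split thus lay between the first window and the later ones, which also differ in date code. With the date code as a block, the changes of these genes in loaded legs by 9 to 14 d were 0.17, 0.26 and 0.47. Hsph1 and Hsp90ab1 were split at the same place, with loaded legs at 5 to 8 d as the upper neighbour (8.89 and 12.95) and unloaded legs at 6 h to 4 d below (8.49 and 12.71). For Stip1 the gap fell between unloaded legs at 5 to 8 d (11.11) and loaded legs at 5 to 8 d (10.63). The means of both later unloaded groups thus stood above those of all loaded groups and of both early groups. Single legs overlapped, with the loaded leg of rat 41 at 10.96 and the unloaded leg of rat 55 at 10.61. Hspa8, Chordc1 and Dnajb1 had no gap larger than the SD.

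How alike the members were from array to array depended on which groups were pooled. As a description, Pearson's r between pairs of members ran from 0.34 to 0.91 over the 46 arrays (median 0.59, 36 pairs), and from -0.07 to 0.91 over the 23 leg differences (median 0.65). The 46 arrays pool 6 groups with different means. Within the largest groups, 6 h to 4 d with 13 arrays each, r ran from -0.63 to 0.89 in loaded legs (median 0.41) and from -0.51 to 0.91 in unloaded legs (median 0.25). Within the smaller groups of later windows the medians were 0.71 to 0.78, with wide ranges. There r ran from -0.89 to 0.99 in the groups of 4 arrays and from -0.27 to 0.98 in those of 6. Hsph1 lay closest to the mean of the members (r = 0.97 for levels and 0.94 for leg differences), and Hspa4 was the least alike in leg differences (r = 0.51). That mean includes the member itself, which raises its r, while it includes no gene outside the members. These arrays share rats and windows. Of genes outside the members, those with levels most like the mean of the members over 46 arrays were Lman2l (r = 0.87), Atp6ap2 (0.86), Tmem33 (0.86), Cct8 (0.86), a subunit of the cytosolic chaperonin, and Hyou1 (0.85), the Hsp110 protein of the endoplasmic reticulum. In leg differences over 23 rats they were Esd (0.84), Dnlz (0.84), Rpl34 (0.83), Kdm8 (0.82) and Banf1 (0.82).

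Other genes of the pathway were read from 4 lists. Of the Hsp90 co-chaperones, 14 of 17 were measured. With loading over all windows 1 of these fell, Ppid, the cyclophilin that binds Hsp90, by 0.27 on the log2 scale (SE 0.06, adjusted p = 0.0179 by limma), a call that held without any 1 rat. It ended in the single date code (-0.26) and without the 6 rats of uncertain pairing (-0.23). The list had a median of -0.03. With duration in unloaded legs 7 of 14 rose and 3 fell by 9 to 14 d, where 45.6% of all genes were called, and in loaded legs 4 rose and 4 fell, where 44.2% were. Values scaled by cyclic loess, another way to bring arrays to a common scale, gave 5 higher and 5 lower in unloaded legs (45.8% of all genes) and 3 higher and 5 lower in loaded legs (43.4% of all genes). In unloaded legs Stub1, the ubiquitin ligase CHIP that tags clients of Hsp70 and Hsp90, rose by 0.77 (SE 0.08) and Fkbp8 by 0.54 (SE 0.11). Fkbp5, a glucocorticoid-induced co-chaperone of steroid receptors, fell by 1.94 (SE 0.43), and Smyd1, a muscle methyltransferase that works with Hsp90 on myosin, fell by 0.74 (SE 0.19). Nudc rose by 0.46, Ptges3 (the Hsp90 co-chaperone p23) by 0.51, Ppid by 0.43, Sugt1 by 0.40 and Unc45b, a myosin chaperone, by 0.38, and Fkbp4 fell by 0.30. Of these, the call of Ptges3 ended without rat 57, of Ppid without rat 51, of Sugt1 without rat 51 or 57, of Unc45b without rat 49, 51 or 57 and of Fkbp4 without rat 45 or 49. With the date code as a block 2 of the list rose in unloaded legs, Stub1 (0.61) and Fkbp8 (0.44), and none fell. In loaded legs with that block Stub1 (0.68) and Fkbp8 (0.54) rose and Smyd1 fell by 0.85.

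Of the other Hsp90 and Hsp70 proteins, 11 of 14 were measured. With loading over all windows Hspa12a, a distant Hsp70 relative, fell by 0.18 (SE 0.05, adjusted p = 0.0463 by limma), a call that ended in 16 of 23 analyses that left out 1 rat. The list had a median of -0.08. By 9 to 14 d in unloaded legs 4 rose, the endoplasmic reticulum chaperones Hyou1 (0.61) and Hsp90b1 (0.39), the Hsp110 relative Hspa4l (0.68) and Hspa14 (0.40). In loaded legs 2 rose, Hspa14 (0.48) and Hyou1 (0.48). Both counts, 4 of 11 and 2 of 11, stand beside 45.6% and 44.2% of all genes called. Cyclic loess gave 3 higher and 2 lower in unloaded legs, and 3 higher and 1 lower in loaded legs. The call of Hspa4l ended without rat 47, that of Hsp90b1 without rat 49, 51 or 57, and none of the 4 was called with the date code as a block, where Hspa2 was the 1 gene of the list called. In loaded legs with that block Hspa14 (0.50) was called. The genes of the inducible Hsp70 itself, Hspa1a and Hspa1b, and their relative Hspa1l are listed on a probe set with several symbols and are not analysed here.

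Of 15 exchange factors and helpers of Hsp70, 14 were measured, none was called with loading (median 0.00), and 4 rose and 2 fell in unloaded legs by 9 to 14 d, a share near the 45.6% of all genes called. Cyclic loess gave 3 higher and 4 lower there, 2 higher and 2 lower in loaded legs, and for loading over all windows 2 higher, Dnajb5 and Dnajc7. Sil1, an exchange factor of the endoplasmic reticulum, rose by 0.84 (SE 0.10) and Bag1, an exchange factor of the cytosol, by 0.77 (SE 0.09). St13, which binds Hsp70 in its cycle, rose by 0.45 and Hspbp1 by 0.42, while Dnaja4 fell by 0.46 and Bag4 by 0.16. The call of Bag4 ended in 14 of 19 analyses that left out 1 rat, that of Dnaja4 without rat 49 and that of St13 without rat 57. With the date code as a block Bag1 (0.84), Sil1 (0.63) and Hspbp1 (0.33) were called. In loaded legs 4 rose and 1 fell, where 44.2% of all genes were called, with 0.80 for Sil1 and 0.70 for Bag1. With that block 2 rose and 1 fell in loaded legs. Of 11 heat shock factors and other heat shock genes 9 were measured, and none was called with loading (median -0.09), while cyclic loess called Hspb1 lower. By 9 to 14 d in unloaded legs 4 rose, the mitochondrial chaperonin pair Hspe1 (0.49) and Hspd1 (0.41), the small heat shock protein Hspb1 (0.57) and Hsbp1 (0.27), a binding partner of heat shock factors. Hspe1 and Hspd1 were also called with the date code as a block. The call of Hspb1 ended without rat 49, 51, 57 or 59, and that of Hspd1 in 9 of 19 analyses that left out 1 rat. In loaded legs 2 rose, Hsbp1 (0.24) and Hsf4 (0.58), and neither was called with the date code as a block. Both counts, 4 of 9 and 2 of 9, stand beside 45.6% and 44.2% of all genes called. Cyclic loess gave 1 higher in each leg, Hspe1 in unloaded and Hsf4 in loaded legs, so that the calls of Hspd1, Hspb1 and Hsbp1 ended. Hsf1, whose protein is regulated mainly after translation, changed by -0.06 (SE 0.14) in unloaded legs and was not called. In none of the 4 lists was a gene called for loading at 9 to 14 d.

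**Figure D4:**
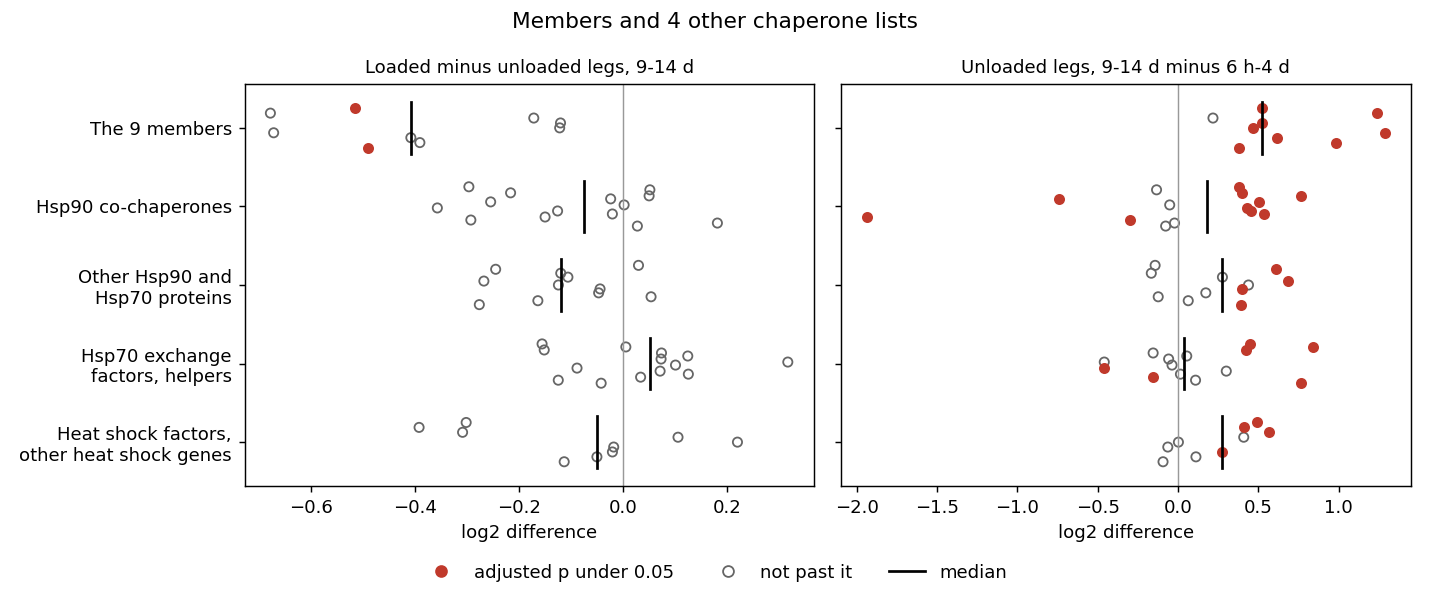
Log2 differences of the 9 members and of 4 other chaperone lists, for loaded minus unloaded legs at 9 to 14 d (left) and for unloaded legs at 9 to 14 d minus 6 h to 4 d (right); each point is a gene, filled where limma's adjusted p passed 0.05, and black bars are medians. On the left 2 members are filled and no gene of the other lists. On the right 8 members are filled, all above 0. There the co-chaperones and the exchange factors hold filled points on both sides of 0. The other Hsp90 and Hsp70 proteins and the heat shock list hold them above 0 only.

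Rbm3, whose RNA-binding product is known as a cold-shock protein, was set against Hsp90aa1 because it rose with loading over all windows (1.01, SE 0.17, adjusted p = 0.0067 by limma, higher in 20 of 23 rats). Both genes were thus taken up with their leg differences in these rats known, and the relation is a description, without a test. Over 23 rats the leg differences had Pearson's r = -0.67 and Spearman's rho = -0.49. This was the only pair of a member and an outside gene that was correlated. Correlations among members and of all genes with the mean of the members were also computed, as given above. Without rats 21 and 43, the 2 farthest from the median of Hsp90aa1, r was -0.32, so the value over all rats rests in large part on those rats. Within windows r was -0.51 at 6 h to 4 d (13 rats, -0.59 without the 2 farthest of that window, rats 21 and 37) and -0.59 at 9 to 14 d (6 rats, none of them 21 or 43). Within date codes of at least 6 rats r was -0.63 (10 rats, -0.63 also without its 2 farthest, rats 37 and 43) and -0.87 (6 rats, including rat 21). Rats 17, 19, 21, 23 and 27 of the latter code have an uncertain pairing. Without all 6 rats of uncertain pairing r was -0.58 and rho -0.28 (17 rats). Both genes are read from the same pair of arrays.

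**Figure D5:**
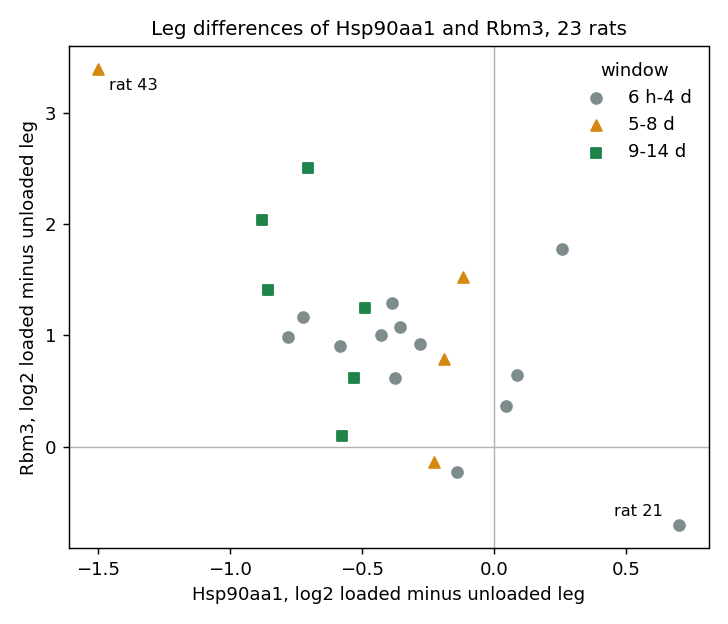
Log2 difference, loaded minus unloaded leg, of Rbm3 (vertical axis) against that of Hsp90aa1 (horizontal axis) in 23 rats, by window. Rats 43, at -1.50 for Hsp90aa1 and 3.39 for Rbm3, and 21, at 0.70 and -0.71, hold the lowest and the highest difference of Hsp90aa1.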

How the data were processed

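RNA of 46 gastrocnemius muscles of 23 rats was measured on single-colour Affymetrix arrays. The authors deposited log2 values for every probe set on each array, made with RMA (version not stated), per the submitters' processing notes. RMA corrects background, quantile-normalises and summarises probes, so a change shared by most transcripts would be partly removed. The table holds 26208 probe sets with values from 1.92 to 14.38. Signal over background and detection calls were not used here, and the number of arrays limits the precision.

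Symbols come from the platform annotation, which can be old: 1 symbol is given for 15088 probe sets, several for 323 and none for 10797. Probe sets above the median of their own array on at least 4 arrays were kept (14834), and each gene was read by its brightest one on average, giving 9289 genes. All 9 members passed. The 12 comparisons used lmFit and eBayes of limma 3.58.1 under R 4.3.3, with two-sided p-values adjusted by Benjamini-Hochberg over the 9289 genes and a threshold of 0.05. The rat was a block in every fit of loading, and windows were compared in loaded and in unloaded legs separately. Pairs of legs were inferred from consecutive label numbers with the same window and date code. Deviations of both legs correlated above 0.1 in 21 of 23 rats (median r = 0.60), the exceptions being rats 17 (0.08) and 27 (-0.35). In these and 4 others neither leg correlated best with its own partner, and their pairing is called uncertain. SE and 95% intervals are limma's. Correlations were computed with scipy 1.17.1 in Python 3.11.15. A permutation test fixed for the relation of Hsp90aa1 and Rbm3 is not given, since both genes were taken up with their leg differences known. The scripts were tested on simulated data. The members and all gene and marker lists were chosen with earlier results of these data known. Genes outside the members are named where they passed the threshold on a pathway list, or by likeness to the mean of the members, apart from Hsf1, Hspa1a, Hspa1b and Hspa1l, and from Hspa2, Dnajb5 and Dnajc7, which were named after their values were seen. Rbm3 was fixed for the relation. Loci and promoters are those of RefSeq for GRCr8, as the array values carry no build. Protein sequences and a promoter of Hsp90aa1 were not used here. Alternatives were cyclic loess, no filter, array weights, mean probe set values, the date code as a block or alone, other replicate blocks, and leaving out rats.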

Additional observations from a re-analysis of the deposited data

Results flagged for a closer look

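In 6 of 54 groups of 4 to 10 samples tested (levels and leg differences), 1 sample lay far from the others by Dixon's criterion, which chance meets in about 1 group of 20. All 6 are at 5 to 8 d, where a group holds 4 rats. In rat 43 the leg difference (log2, loaded minus unloaded) was -1.50 for Hsp90aa1, where the other rats had -0.23 to -0.12. For Hsph1 it was -1.52, against -0.35 to -0.20 in the others, for Stip1 -1.05, against -0.32 to -0.22, and for Dnajb1 -1.20, against 0.05 to 0.26. The level of Hsph1 was 9.28 in the loaded leg of rat 53, against 8.72 to 8.81 in the other loaded legs. The level of Hspa8 was 13.02 in the unloaded leg of rat 41, against 13.66 to 13.75 in the other unloaded legs. The cause was not tested in any of them.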

How the results depend on the processing

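No difference of a member changed sign under an alternative where either value was called. Pathway genes were checked only where called without an alternative, for loading (all windows or the last) or for the late change within each leg. None of these changed sign where either value was called. Hspa2, Dnajb5 and Dnajc7, which were named from alternatives, were not part of this check. For loading over all windows the count of members called was 1, and became 2 with cyclic loess, 4 with array weights, 4 with a random replicate block, 4 with the effects of the windows weighted by rats (added after seeing the data), 3 without 6 rats of uncertain pairing, 0 without the replicate block and 0 in date code 3 alone, the code that holds all windows. At 9 to 14 d it was 2, and became 4 with array weights and 0 without the replicate block, without those 6 rats or in date code 3 alone. At 5 to 8 d it was 0, and 1 with array weights. In unloaded legs the count at 5 to 8 d was 6, and became 3 with the date code as a block and 0 in date code 3 alone. At 9 to 14 d it was 8, and 2 in date code 3 alone, and between the later windows it was 0, and 1 with array weights. In loaded legs the count at 5 to 8 d was 5, and became 1 with cyclic loess, 0 with the date code as a block and 0 in date code 3 alone. At 9 to 14 d it was 5, and became 1 with the block and 0 in date code 3 alone. Date code 3 holds 10 rats, so fewer arrays were tested there. For the other changes the cause was not tested.

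With each rat left out in turn the counts ran from 1 to 4 for loading over all windows, 0 to 1 at 5 to 8 d (1 without rat 41), 0 to 3 at 9 to 14 d (0 without rat 49 or 51), 5 to 7 and 8 to 9 for unloaded legs at 5 to 8 d and 9 to 14 d, 0 to 1 between those windows (1 without rat 43), and 1 to 5 and 5 to 6 for loaded legs at 5 to 8 d and 9 to 14 d, and stayed at 0 elsewhere. Of all 9289 genes, 2233 to 3643 and 3639 to 4454 were called in those analyses for unloaded legs at 5 to 8 d and 9 to 14 d. For loaded legs 2738 to 3902 and 3614 to 4340 were called. Between the later windows of unloaded legs it was 0 to 544, and for loading at 5 to 8 d 0 to 60. Over all genes loading calls numbered 216, with 102 to 339 without 1 rat, 473 with array weights, 133 without the filter, 312 with cyclic loess, 315 with a random replicate block, 301 without the 6 rats, 3 without the replicate block and 1 in date code 3 alone. At 9 to 14 d they numbered 25, with 6 to 92 without 1 rat, 122 with array weights, 81 with a random replicate block, 6 without the 6 rats, 2 without the replicate block and 0 in date code 3 alone. At 5 to 8 d 0 genes became 1182 with array weights, and calls also appeared with array weights in the contrast of loading at 5 to 8 d with that at 6 h to 4 d. For duration the date code as a block gave 757 calls for 3337 and 2177 for 4232 in unloaded legs at 5 to 8 d and 9 to 14 d, and 850 for 3620 and 1862 for 4110 in loaded legs, and date code 3 alone gave 16, 904, 0 and 453 in the same order. Between the later windows array weights gave 136 for 21 calls in loaded and 2214 for 21 in unloaded legs. Cyclic loess moved the share of called genes that were higher to 46.8% from 36.6% for loading over all windows, to 49.4% from 65.6% for unloaded legs at 5 to 8 d, to 51.3% from 69.1% for loaded legs at 5 to 8 d and to 52.9% from 65.6% for loaded legs at 9 to 14 d.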
